A study of Mus musculus with 6 samples.

Results

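The transcripts of glycolysis and of the pentose phosphate pathway were followed across 6 arrays of mouse peritoneal macrophages. The set was a list of 33 genes, 26 of glycolysis with its entry, lactate and pyruvate branches and 7 of the pentose phosphate pathway. A gene was taken as measured when a row of the expression table carried its symbol in the platform annotation, which held for 29 of the 33, among 25206 features in all. The 29 were 23 genes of glycolysis and 6 of the pentose phosphate pathway. Gpi1, Gapdh and Eno1 of glycolysis and G6pdx of the pentose phosphate pathway were not analysed here. By level, 25 of the 29 lay above the median feature, at a log2 level of 3.55, and Slc2a3, Pfkm, Aldoc and Ldhb lay below it.

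The arrays came from 3 cultures labelled Tet2-deficient, from Tet2-/- mice, and 3 wild-type cultures, from littermates, all of the C57BL/6J background. Tet2 is an enzyme that oxidises methylated cytosine in DNA. Both groups of mice had received an intraperitoneal injection of 1 mL of 4% aged Brewer's thioglycollate, an irritant broth that draws monocytes and macrophages into the abdominal cavity, 4 days before the cells were taken. Both groups were plated in RPMI with 10% fetal bovine serum and then given 10 ng/ml of lipopolysaccharide (LPS), a bacterial cell wall component, with 2 ng/ml of interferon gamma (IFNg) for 10 h. No unstimulated culture entered the comparison, so every value describes stimulated cells. The labels give neither the structure of the Tet2 allele nor the age or sex of the mice. Samples within a group are labelled as biological replicates.

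Glycolysis splits glucose into pyruvate in the cytosol and gives ATP without oxygen, and lactate dehydrogenase turns pyruvate into lactate for export. The pentose phosphate pathway branches off at glucose phosphate. Its oxidative arm makes NADPH, and its non-oxidative arm rearranges sugars between ribose phosphate and glycolytic intermediates. Macrophages stimulated with LPS and interferon gamma are known for a high rate of glycolysis and for a need of NADPH to make reactive oxygen and nitric oxide.

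Array medians were 3.47 to 3.60 in Tet2-deficient and 3.54 to 3.66 in wild-type arrays on the log2 scale, and Pearson correlations over all features were 0.989 to 0.991 among Tet2-deficient arrays, 0.988 to 0.990 among wild-type arrays and 0.983 to 0.987 between the groups. Tet2 itself did not read lower in the Tet2-deficient group. Its feature gave 5.55, 5.25 and 5.75 in Tet2-deficient and 5.40, 5.07 and 5.10 in wild-type arrays, a difference of 0.32 ± 0.16 (SE, n = 3 each, limma adjusted p = 0.365). The labels do not say which exons the allele lacks or where the array probes lie, so this feature does not check the genotype. Of 8 listed macrophage markers 7 were measured, at a mean log2 level of 10.0 to 10.2 in Tet2-deficient and 9.76 to 9.82 in wild-type arrays, and 2 of them, Itgam and Cd14, passed the test as higher. Of the other measured ones, Csf1r differed by 0.58, Adgre1 by 0.15, Cd68 by 0.0017, Mertk by -0.10 and Fcgr1 by -0.51, none past the test. Markers of the macrophages that reside in the peritoneum (Gata6, Timd4, Cd5l and 5 others, 8 of 8 measured) averaged 5.74 to 6.10 in Tet2-deficient and 5.06 to 5.44 in wild-type arrays, with all 8 differences above 0 and 2 past the test. The 3 measured monocyte markers averaged 5.62 to 6.31 in Tet2-deficient and 5.27 to 5.53 in wild-type arrays. Ly6c2 differed by 1.01 without overlap, while Ccr2 (0.22) and Plac8 (0.12) overlapped between the groups, and none of the 3 passed the test. Neutrophil markers, 9 of 9 measured, averaged 3.34 to 3.50 in Tet2-deficient and 3.39 to 3.46 in wild-type arrays. Among them S100a8 read 7.67 to 8.87 in Tet2-deficient and 7.38 to 7.96 in wild-type arrays, while the defining Ly6g read 2.45 to 3.28 in Tet2-deficient and 2.94 to 3.32 in wild-type arrays. Stromal and mesothelial markers, 9 of 9 measured, averaged 3.97 to 4.82 in Tet2-deficient and 3.88 to 4.29 in wild-type arrays, highest in Tet2-deficient replicate 2. The part of these marker differences in the results that follow was not tested. In these bulk cultures fewer cells of a type and less RNA per cell cannot be told apart.

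No gene of either pathway passed the test of Tet2-deficient against wild-type arrays. In the limma fit over all features, 0 of the 29 measured genes had a Benjamini-Hochberg adjusted p under 0.05, with 0 higher and 0 lower, beside 240 of 25206 features (0.952%), of which 0.647% of all features were higher and 0.305% lower. The smallest adjusted p of the 29 was 0.122, for triosephosphate isomerase (Tpi1). The largest difference among them was 0.55 in size on the log2 scale, and the smallest among the 240 called features was 0.58. Under a looser bound of 0.25 the set held 7 genes (24.1%), beside 12% of all features, and 9 genes (31%) had an unadjusted p under 0.05, beside 16% of all features. Of the features above the median level, where 25 of the 29 genes lie, 3028 of 12603 had an unadjusted limma p under 0.05. These shares were not tested against each other. Of the 29 differences, 11 were above 0 and 18 below, with a median of -0.068 beside -0.040 over all features. Of all features, 10607 were above 0 and 14599 below. Over features above the median level the median was -0.0054.

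In 9 of the 29 genes (31%) the arrays of the groups did not overlap, beside 22% of all features. Slc2a1, Hk2, Pfkfb4 and Pgd (13.8%) were higher in every Tet2-deficient array than in any wild-type array, beside 9.74% of all features. Hk3, Tpi1, Pdk1, Pgls and Taldo1 (17.2%) were lower in every Tet2-deficient array, beside 12.2% of all features. The count depends on Tet2-deficient replicate 1: without it, 16 genes did not overlap, beside 30.9% of all features, and without any 1 of the other arrays 9 to 12, beside 29.7% to 35.6% of all features. With fewer arrays a lack of overlap is easier to reach by construction. Among the features above the median level, where 25 of the 29 genes lie, 31.1% did not overlap with all 6 arrays.

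**Figure D1:**
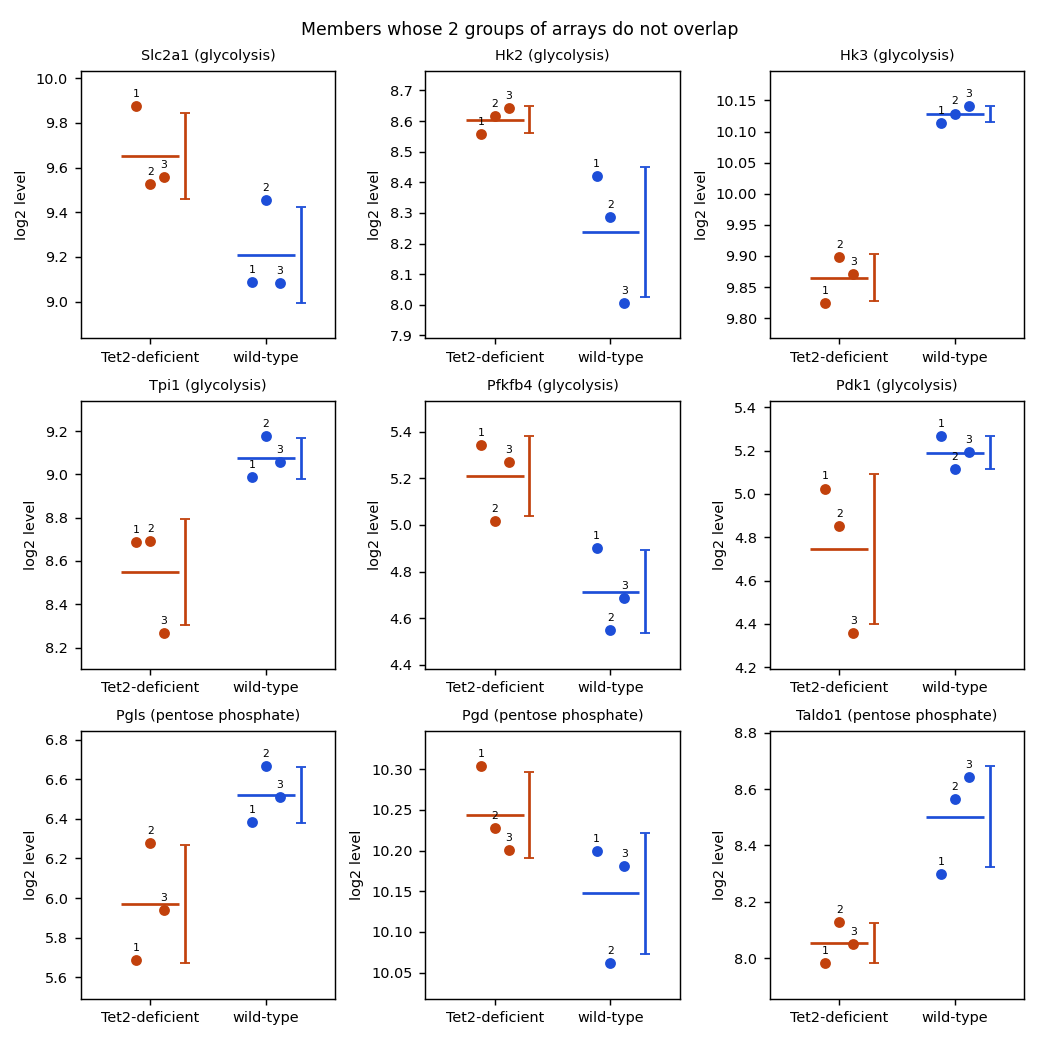
Log2 level (vertical axis) of the 9 genes whose groups do not overlap, in Tet2-deficient (left) and wild-type arrays (right). Each point is 1 array with its replicate number, the line is the mean of 3 and the bar its SD, and axes differ between panels and do not start at 0. Hk3 separates with little spread, while the nearest Pgd points of the groups almost touch.

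Promoter letters are shown for the 2 genes with the largest positive and the 2 with the largest negative differences, since hypoxia-inducible factors, which bind the core letters ACGTG or GCGTG, are known regulators of many glycolytic genes. Each run is the 250 bases before the gene start in RefSeq on GRCm38.p6, 5′ to 3′ on the strand of the gene, with capitals for either core on either strand. Pfkfb4 lies at chr9:108991652-108991901 (plus strand), Slc2a1 at chr4:119108495-119108744 (plus strand), Pgls at chr8:71591934-71592183 (plus strand) and Tpi1 at chr6:124814159-124814408 (minus strand).
Pfkfb4: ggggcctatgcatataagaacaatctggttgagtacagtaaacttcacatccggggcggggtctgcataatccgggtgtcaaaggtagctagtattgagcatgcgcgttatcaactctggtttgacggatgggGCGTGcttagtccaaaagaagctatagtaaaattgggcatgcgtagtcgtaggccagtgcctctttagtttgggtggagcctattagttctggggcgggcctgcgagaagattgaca
Slc2a1: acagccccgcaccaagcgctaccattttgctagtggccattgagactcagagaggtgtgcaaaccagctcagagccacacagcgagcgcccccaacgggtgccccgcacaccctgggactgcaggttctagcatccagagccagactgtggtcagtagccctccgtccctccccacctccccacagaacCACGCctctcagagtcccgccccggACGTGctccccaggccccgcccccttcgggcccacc
Pgls: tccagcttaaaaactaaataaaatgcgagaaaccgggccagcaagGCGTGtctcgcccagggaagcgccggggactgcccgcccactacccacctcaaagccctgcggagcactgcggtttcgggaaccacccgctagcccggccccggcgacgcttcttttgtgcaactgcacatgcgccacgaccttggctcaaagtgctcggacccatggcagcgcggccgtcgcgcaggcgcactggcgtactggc
Tpi1: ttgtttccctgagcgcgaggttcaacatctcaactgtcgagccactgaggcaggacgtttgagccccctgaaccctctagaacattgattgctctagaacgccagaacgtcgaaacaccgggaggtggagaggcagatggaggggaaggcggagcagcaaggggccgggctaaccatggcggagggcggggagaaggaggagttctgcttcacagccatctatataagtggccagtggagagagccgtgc
The first base of the core stood at -117 from the gene start in Pfkfb4, at -61 and -36 in Slc2a1 and at -205 in Pgls, and the Tpi1 window held no core. A promoter was listed for 28 of the 29 measured genes, all but Slc2a3. A core occurred in at least 1 listed promoter of 26 of the 28 (92.9%), all but Tpi1 and Rpe, beside 41.5% of the 27025 genes of the table. By promoter the share was 80.0% of 40, beside 38.6% of 32851. By pathway it was 21 of 22 glycolysis genes (95.5%) and 5 of 6 pentose phosphate genes (83.3%). The relation of the letters to the sign of the differences was not tested. The core ACGTG also lies inside the palindrome CACGTG, an E-box, which 4 of the 28 held (14.3%; Pfkm, Pfkfb3, Ldha and Slc16a1), beside 6.9% of all genes. The promoters of the set had a median GC content of 60.4%, beside 52.4% of all, and the part of base composition in these shares was not tested. A match of letters is not a binding site.

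Glucose entry is served by the transporters GLUT1, encoded by Slc2a1, and GLUT3, encoded by Slc2a3. Slc2a1 had log2 levels of 9.88, 9.53 and 9.56 in Tet2-deficient and 9.09, 9.46 and 9.08 in wild-type arrays. All 3 Tet2-deficient values lay above all 3 wild-type values, with wild-type replicate 2 only just below Tet2-deficient replicate 2. The difference was 0.44 ± 0.15 (SE, n = 3 each; 95% interval 0.10 to 0.79), at a limma adjusted p of 0.198. Slc2a3 sat low, at 2.47 to 2.66 in Tet2-deficient and 2.38 to 2.92 in wild-type arrays, and its groups overlapped (-0.083 ± 0.15).

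Hexokinases trap glucose in the cell as glucose phosphate, and the arrays of Hk2 and Hk3 separated in opposite directions. Hk2, the isozyme that is typically inducible, read 8.56, 8.62 and 8.64 in Tet2-deficient and 8.42, 8.29 and 8.01 in wild-type arrays. The Tet2-deficient arrays were close together and all higher, and the wild-type arrays were spread, with replicate 3 lowest. The difference was 0.37 ± 0.13 (SE, n = 3 each; 95% interval 0.06 to 0.67), 1.29-fold, with a limma adjusted p of 0.224. Hk3, an isozyme of blood cells, read 9.82, 9.90 and 9.87 in Tet2-deficient and 10.11, 10.13 and 10.14 in wild-type arrays. Every Tet2-deficient value was lower, and both groups were tight: its residual SD of 0.0282 was the smallest of the 29 genes. The difference was -0.26 ± 0.11 (SE, n = 3 each; 95% interval -0.51 to -0.02), a limma adjusted p of 0.275. Hk1, the broadly expressed isozyme, overlapped between the groups, at 6.91 to 7.04 in Tet2-deficient and 6.79 to 6.97 in wild-type arrays (0.094 ± 0.12).

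The upper steps turn hexose phosphate into triose phosphates. Tpi1, which interconverts the triose phosphates made by aldolase, had levels of 8.69, 8.69 and 8.27 in Tet2-deficient and 8.99, 9.18 and 9.06 in wild-type arrays. All Tet2-deficient arrays were lower, replicate 3 by the widest margin. The difference was -0.52 ± 0.15 (SE, n = 3 each; 95% interval -0.85 to -0.20), a fold of 0.695, and the limma adjusted p was 0.122. Tpi1 was the 1 gene of the set that passed under any alternative with the 0.05 threshold: with a trended and robust prior its adjusted p was 0.0463, where 3.23% of all features passed in place of 0.952%. The Tpi1 adjusted p ranged from 0.0463 to 0.326 over its 12 alternatives.

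The phosphofructokinase subunits, which catalyse the committed step, overlapped between the groups. Pfkl, the liver-type subunit, spanned 6.90 to 7.16 in Tet2-deficient and 6.90 to 7.20 in wild-type arrays (0.026 ± 0.13, or -0.039 with cyclic loess between arrays). Pfkp, the platelet-type subunit, spanned 8.63 to 8.84 in Tet2-deficient and 8.59 to 8.81 in wild-type arrays (0.061 ± 0.12). Pfkm, the muscle-type subunit, stayed below the median feature, at 2.35 to 2.66 in Tet2-deficient and 2.08 to 2.85 in wild-type arrays (0.11 ± 0.20). Aldolase cuts fructose bisphosphate. Aldoa spanned 3.91 to 4.59 in Tet2-deficient and 3.88 to 4.69 in wild-type arrays, with the largest residual SD of the set (0.410). Its 95% interval ran from -0.60 to 0.50, so with 3 arrays a group differences of either sign remained compatible with the values. Aldoc, a dimmer isozyme, averaged 3.06 ± 0.16 in Tet2-deficient and 3.47 ± 0.33 in wild-type arrays (SD, n = 3 each), with 1 wild-type array inside the Tet2-deficient range and a limma adjusted p of 0.304.

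Pfkfb3 and Pfkfb4 encode bifunctional enzymes that make and break down the sugar bisphosphate that activates phosphofructokinase. Pfkfb4 read 5.34, 5.02 and 5.27 in Tet2-deficient and 4.90, 4.55 and 4.69 in wild-type arrays. All Tet2-deficient arrays were higher, and replicate 2 was the lowest of each group. The difference, 0.50 ± 0.14 (SE, n = 3 each; 95% interval 0.18 to 0.82), was the largest positive value of the set, 1.41-fold, at a limma adjusted p of 0.132 (0.0618 to 0.334 over 12 alternatives). Pfkfb3, the isozyme known to be induced by LPS, gave 7.64, 7.50 and 7.59 in Tet2-deficient and 7.55, 7.82 and 7.67 in wild-type arrays. The groups overlapped, and the difference was -0.10 ± 0.12 with a 95% interval that spans 0.

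The lower steps yield ATP and pyruvate, and their 3 measured genes overlapped between groups. Pgk1, the phosphoglycerate kinase of an ATP-forming step, spanned 5.47 to 6.07 in Tet2-deficient and 5.64 to 6.33 in wild-type arrays. Pgam1, phosphoglycerate mutase, spanned 5.11 to 5.57 in Tet2-deficient and 5.17 to 5.40 in wild-type arrays. Pkm, the pyruvate kinase that ends the pathway, had levels of 9.41, 9.11 and 9.01 in Tet2-deficient and 9.21, 9.35 and 9.34 in wild-type arrays. Tet2-deficient replicate 1 was the highest Pkm array and the other two the lowest, for a difference of -0.12 ± 0.14 (SE, n = 3 each; 95% interval -0.43 to 0.19). The differences of Pgk1 and Pgam1 were -0.068 ± 0.22 and -0.014 ± 0.15, and that of Pgam1 was 0.052 when arrays were centred on their medians.

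Pyruvate leaves glycolysis as lactate or through pyruvate dehydrogenase. Ldha, the lactate dehydrogenase subunit of glycolytic cells, gave 9.96, 9.71 and 9.58 in Tet2-deficient and 9.77, 9.94 and 9.86 in wild-type arrays. The highest and the lowest Ldha arrays were both Tet2-deficient, and the difference was -0.11 ± 0.13 (SE, n = 3 each; 95% interval -0.40 to 0.19). Ldhb, the heart-type subunit, was dim, at 3.15 to 3.53 in Tet2-deficient and 3.49 to 3.83 in wild-type arrays (-0.26 ± 0.15, limma adjusted p = 0.454). The lactate exporter MCT4, encoded by Slc16a3, spanned 7.22 to 7.92 in Tet2-deficient and 7.25 to 7.70 in wild-type arrays. Slc16a1, which encodes the monocarboxylate transporter MCT1, spanned 5.74 to 5.92 in Tet2-deficient and 5.70 to 6.05 in wild-type arrays, with a difference of -0.024, which was 0.042 after median centring. None of these 4 genes separated the groups.

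Pdk1 and Pdk3 encode kinases that switch off pyruvate dehydrogenase, and Pdha1 encodes the catalytic subunit they phosphorylate. Pdk1 read 5.02, 4.85 and 4.36 in Tet2-deficient and 5.26, 5.11 and 5.19 in wild-type arrays. All Tet2-deficient arrays were lower, with replicate 3 far below the other two. The difference was -0.45 ± 0.17 (SE, n = 3 each; 95% interval -0.83 to -0.06) at a limma adjusted p of 0.243, and without Tet2-deficient replicate 3 it was -0.25. Pdk3 spanned 5.82 to 6.34 in Tet2-deficient and 6.24 to 6.57 in wild-type arrays (-0.26 ± 0.17, or -0.089 without Tet2-deficient replicate 2), and Pdha1 6.08 to 6.72 in Tet2-deficient and 6.20 to 6.68 in wild-type arrays (0.0025 ± 0.19, or -0.058 with cyclic loess between arrays). Both overlapped between the groups.

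In the oxidative arm of the pentose phosphate pathway, Pgls hydrolyses the lactone that glucose phosphate dehydrogenase makes, and Pgd releases carbon dioxide and makes NADPH. Pgls had levels of 5.68, 6.28 and 5.94 in Tet2-deficient and 6.39, 6.66 and 6.51 in wild-type arrays. All Tet2-deficient arrays were lower, replicate 2 by the narrowest margin. The difference was -0.55 ± 0.16 (SE, n = 3 each; 95% interval -0.92 to -0.18), a fold of 0.682 and the largest of the set in size, at a limma adjusted p of 0.147 (0.0716 to 0.337 over 12 alternatives). Pgd was bright, at 10.30, 10.23 and 10.20 in Tet2-deficient and 10.20, 10.06 and 10.18 in wild-type arrays. Its groups met at 10.20, so the lack of overlap rested on a margin smaller than the rounding, and the difference was 0.097 ± 0.11 (limma adjusted p = 0.738).

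In the non-oxidative arm, Taldo1 encodes transaldolase, which moves carbon units between sugar phosphates. Taldo1 read 7.98, 8.13 and 8.05 in Tet2-deficient and 8.30, 8.56 and 8.64 in wild-type arrays. Every Tet2-deficient array was lower than every wild-type array. The difference was -0.45 ± 0.13 (SE, n = 3 each; 95% interval -0.74 to -0.16), a fold of 0.733, with a limma adjusted p of 0.135 (0.0518 to 0.348 over 12 alternatives). Tkt, the transketolase that works beside it, had 7.88, 8.06 and 7.81 in Tet2-deficient and 8.12, 8.06 and 8.06 in wild-type arrays. Tet2-deficient replicate 2 reached the wild-type range, and the difference was -0.16 ± 0.12. Rpia, the ribose phosphate isomerase, spanned 5.29 to 5.98 in Tet2-deficient and 5.41 to 5.74 in wild-type arrays (0.12 ± 0.18). Rpe, the ribulose phosphate epimerase, spanned 6.33 to 6.66 in Tet2-deficient and 6.52 to 6.68 in wild-type arrays (-0.091 ± 0.13), and both overlapped.

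**Figure D2:**
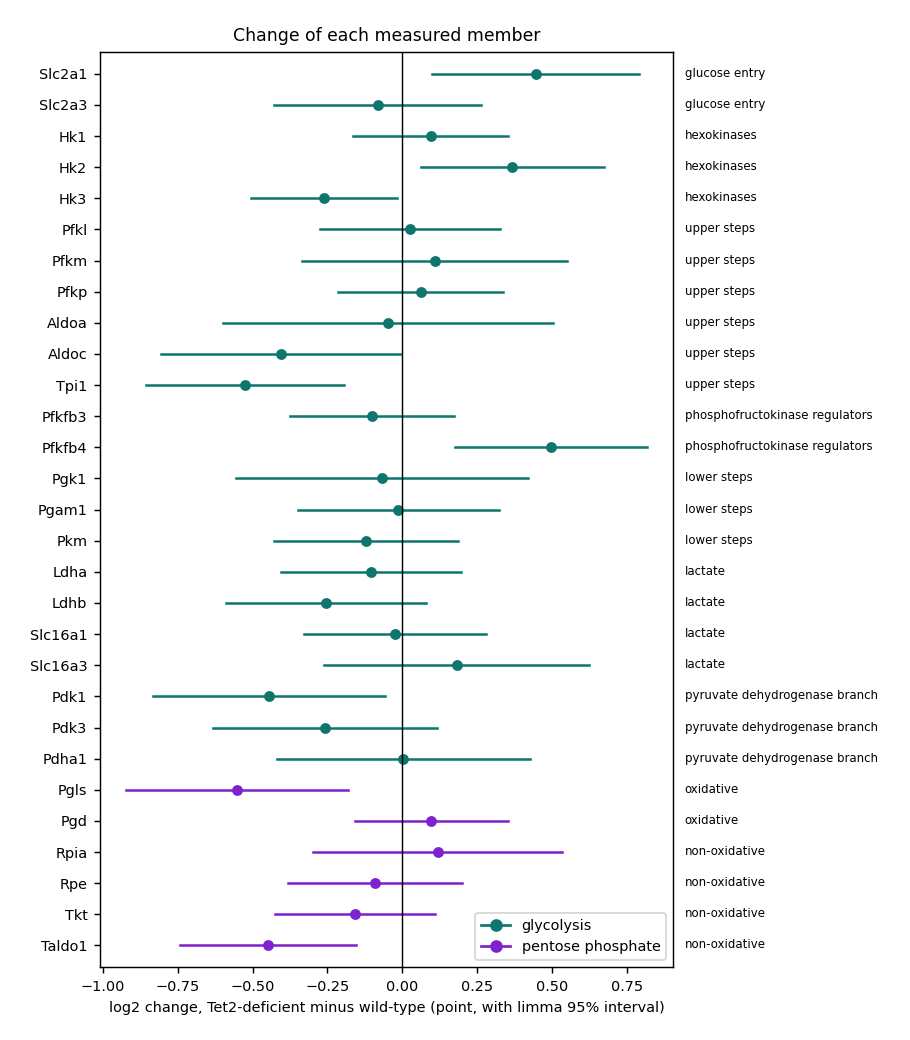
Log2 difference, Tet2-deficient minus wild-type (horizontal axis), of the 29 measured genes in order of their step, with the limma 95% interval over 3 arrays a group. Intervals of Slc2a1, Hk2 and Pfkfb4 lie above 0 and those of Hk3, Aldoc, Tpi1, Pdk1, Pgls and Taldo1 below it, while 0 genes passed the adjusted threshold.

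The pathways were set against each other by their medians. The median log2 difference was -0.049 over the 23 glycolysis genes and -0.13 over the 6 pentose phosphate genes, 0.077 apart, beside a median of -0.040 over all features. Differences of the glycolysis genes ran from -0.52 to 0.50, with 9 above 0 and 14 below. Those of the pentose phosphate genes ran from -0.55 to 0.12, with 2 above 0 and 4 below. Over all features 10607 differences were above 0 and 14599 below. The gap between the medians was not tested. The glycolysis median was 0.017 after median centring and -0.058 with cyclic loess, and with 1 array left out it lay between -0.14, without Tet2-deficient replicate 1, and 0.044, without wild-type replicate 2. The gap between the medians lay between 0.0016 and 0.19 over 13 alternatives. Groups that did not overlap were found in 6 of 23 glycolysis genes (26.1%) and in 3 of 6 pentose phosphate genes (50%), beside 22% of all features. Among features above the median level, where all 6 pentose phosphate genes lie, the share was 31.1%. Pgd, whose groups almost touch, was 1 of the 3 pentose phosphate genes. These shares were not tested against each other.

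By array, the mean deviation of the glycolysis genes from their own means was 0.12, -0.067 and -0.12 in Tet2-deficient and -0.036, 0.13 and -0.032 in wild-type arrays. Tet2-deficient replicate 1 and wild-type replicate 2 stood above the other arrays, so the spread within each group was wider than the distance between the groups. The height of these arrays depended on the scaling. After median centring the glycolysis means were 0.21 in Tet2-deficient replicate 1 and 0.031 in wild-type replicate 2, and after cyclic loess 0.076 and 0.15. Of the 23 glycolysis genes, 16 were highest among Tet2-deficient arrays in replicate 1, and 13 were highest among wild-type arrays in replicate 2. The pentose phosphate genes averaged -0.18, -0.0040 and -0.075 in Tet2-deficient and 0.064, 0.066 and 0.13 in wild-type arrays. All Tet2-deficient means were lower. After cyclic loess between arrays they were lower too, with -0.27, 0.031 and -0.097 in Tet2-deficient and 0.066, 0.12 and 0.14 in wild-type arrays. After median centring the groups overlapped, with -0.090, -0.042 and -0.028 in Tet2-deficient and 0.088, -0.032 and 0.11 in wild-type arrays, wild-type replicate 2 lying just below Tet2-deficient replicate 3. Tet2-deficient replicate 1 was thus the highest of its group for glycolysis and the lowest for the pentose phosphate pathway. Among the pentose phosphate genes, Pgls (-0.55) and Taldo1 (-0.45) differed most, and the others lay between -0.16 (Tkt) and 0.12 (Rpia).

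**Figure D3:**
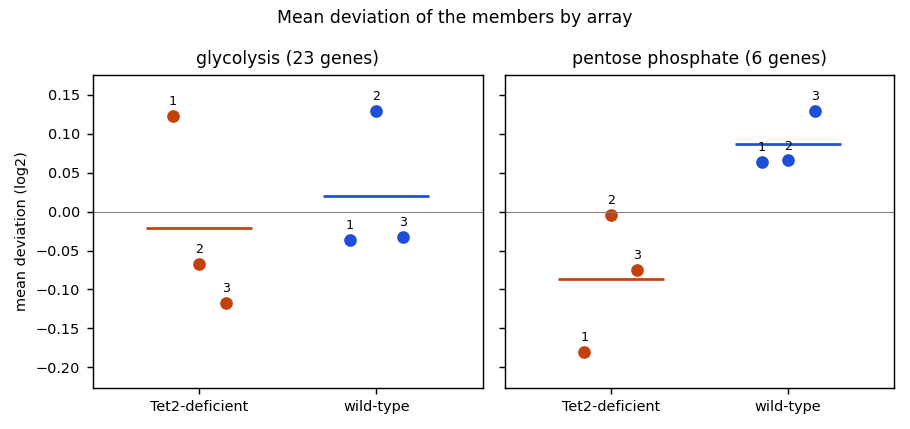
Mean deviation (log2, vertical axis) of the 23 glycolysis genes and of the 6 pentose phosphate genes from each gene's mean over 6 arrays, in Tet2-deficient (left) and wild-type arrays (right). Each point is 1 array with its replicate number and lines are group means, from the values as deposited. The glycolysis groups overlap, and the pentose phosphate groups separate. Other scalings are not drawn: the pentose phosphate groups also separated after cyclic loess but overlapped narrowly after median centring.

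The genes also varied among themselves in how tightly their arrays agreed. Residual SDs had a median of 0.185 over the 29 genes, beside 0.173 over all features, and ran from 0.0282 for Hk3 to 0.410 for Aldoa. Aldoa, Pfkl and Slc16a3 were lowest in replicate 3 of both groups, and 10 of the 29 genes had their lowest array at the same replicate number in both groups. With only 3 arrays a group such matches are frequent by construction. The share over all features was not computed, so the count does not set these genes apart.

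**Figure D4:**
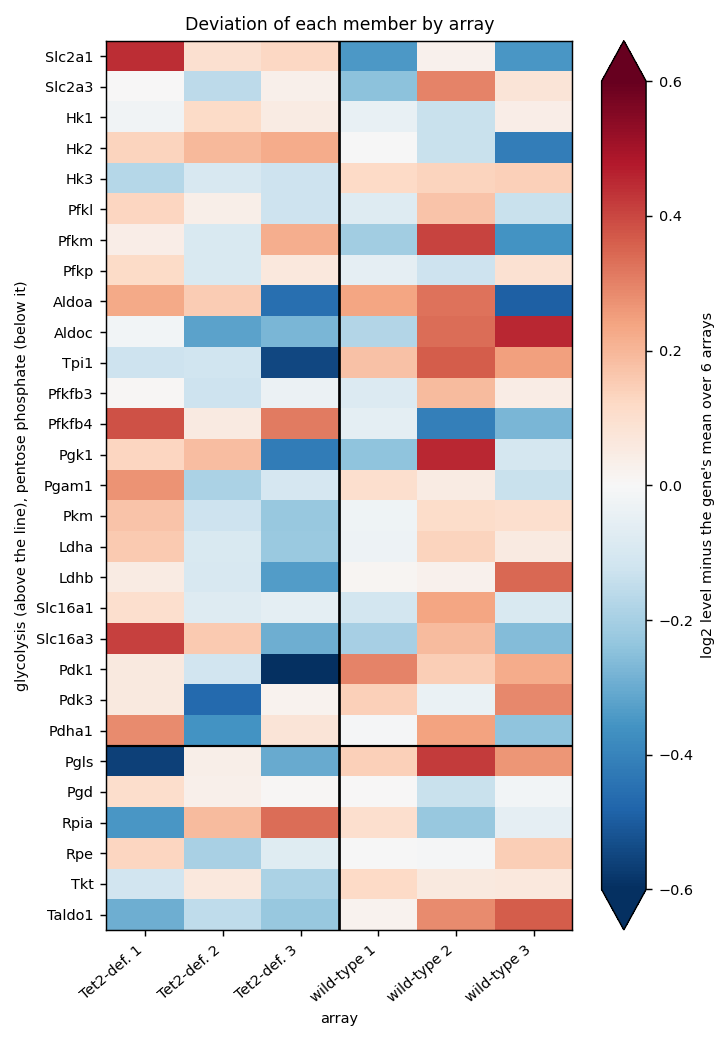
Log2 level minus the gene's mean over the 6 arrays (colour) for each of the 29 genes (rows, glycolysis above the line) in the Tet2-deficient (left) and wild-type arrays (right). In the Tet2-deficient columns Hk3, Tpi1 and Taldo1 are below their means throughout and Slc2a1, Hk2 and Pfkfb4 above them, while Aldoa is lowest in replicate 3 of both groups.

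A second list held 61 genes around the pathways, of which 55 were measured. Of these, 0 passed the adjusted threshold of 0.05 in the limma fit, beside 0.952% of all features. Under an adjusted p of 0.25 there were 8 (14.5%, beside 12% of all features), and 13 had an unadjusted p under 0.05 (23.6%, beside 16%). The groups did not overlap in 18 (32.7%, beside 22% of all features). Most of the 55 lie above the median level. Among the features there 31.1% did not overlap, and 3028 of 12603 had an unadjusted limma p under 0.05. Of all 55, 10 were higher in every Tet2-deficient array (18.2%, beside 9.74% of all features) and 8 lower (14.5%, beside 12.2%). Regulators had a median difference of 0.17 with 9 of 12 above 0, and transport genes 0.080 with 5 of 7 above 0. Other isoforms and adjacent enzymes had -0.13 with 7 of 20 above 0. Genes that bring pyruvate into mitochondria had -0.14 with 2 of 8 above 0, and pentose phosphate neighbours -0.046 with 1 of 8 above 0. Over all features the median was -0.040, with 10607 of 25206 above 0. Over features above the median level it was -0.0054, with 6193 of 12603 above 0. These counts were not tested against each other.

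The 4 genes with the smallest p in this second list included 3 regulators. Egln3 encodes a prolyl hydroxylase that marks the alpha subunits of hypoxia-inducible factors for breakdown and is itself a target of these factors. It read 5.54, 4.55 and 4.54 in Tet2-deficient and 3.91, 3.18 and 3.43 in wild-type arrays. All Tet2-deficient arrays were higher, replicate 1 being highest in each group, and the difference was 1.37 ± 0.28 (SE, n = 3 each), 2.59-fold, with a limma adjusted p of 0.0570. Arnt encodes the partner subunit of those factors. Its values were 7.11, 6.91 and 6.99 in Tet2-deficient and 6.64, 6.60 and 6.55 in wild-type arrays, without overlap (0.41 ± 0.12, limma adjusted p = 0.125). Hif1a itself gave an adjusted p of 0.922 in the same limma fit, with groups that overlapped.

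Prkaa1 encodes a catalytic subunit of AMP-activated protein kinase, an energy sensor. It read 7.66, 7.43 and 7.44 in Tet2-deficient and 6.97, 7.01 and 7.13 in wild-type arrays. Every Tet2-deficient array was higher, by 0.47 ± 0.12 (SE, n = 3 each, limma adjusted p = 0.106). Minpp1, an inositol polyphosphate phosphatase that also acts on bisphosphoglycerate, gave 6.77, 6.49 and 6.56 in Tet2-deficient and 7.19, 7.01 and 7.34 in wild-type arrays. Every Tet2-deficient array was lower, with a difference of -0.58 ± 0.14 (SE, n = 3 each, limma adjusted p = 0.0826).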

How the data were processed

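Total RNA of 6 cultures was measured on whole-transcript arrays, 1 per culture. The authors deposited log2 expression values, made with RMA in affy 1.36.1, per the submitters' processing notes; the array type and genome build were not given in the sources used. RMA brings arrays to 1 shared distribution and would hide a global shift, and folds of dim genes are understated. Sorted values differed between arrays by at most 0.27, so the values were used as deposited. Of 25206 features, 23185 had 1 gene symbol, 0 several and 2021 none in the platform annotation.

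The contrast of Tet2-deficient minus wild-type arrays used limma 3.58.1 (lmFit, eBayes) under R 4.3.3, fitted to every feature without covariates, with two-sided tests. P-values were adjusted by Benjamini-Hochberg over all 25206 features, with a threshold of 0.05. The fit was tested on simulated data. Exact permutation of 3 against 3 arrays cannot reach a two-sided p below 0.1 and was not used. No depth applies to arrays, and their number limits the precision. Promoters were read from RefSeq (GRCm38.p6) with Python 3.11.15.

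Named genes are all 33 listed genes, Tet2, and of the second list those past 0.05 or, with under 3, the 4 with the smallest p. Hif1a was added after its values were seen. The members and lists were chosen with earlier results of these data known. Protein sequences were not used here.

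Alternatives were median centring, cyclic loess, a filter to features above the median level, a replicate block, a trended and robust prior, array weights, each array left out, thresholds of 0.1 and 0.25, means in place of medians, and glycolytic enzymes only.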

Additional observations from a re-analysis of the deposited data

How the results depend on the processing

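The count of called genes of the set was 0 higher and 0 lower under median centring, cyclic loess, the level filter, array weights, the replicate block, each array left out and a threshold of 0.1. With a trended and robust prior 1 gene, Tpi1, was called lower. At a threshold of 0.25 the counts were 3 higher and 4 lower. The count of genes without overlap was 8 under median centring (19% of all features), 9 under cyclic loess (21.8%) and 9 to 16 with 1 array left out (29.7% to 35.6%), highest without Tet2-deficient replicate 1 (30.9%). With the level filter 846 of 12603 features (6.71%) were called, and 0 of the 25 genes of the set tested there. Over the whole table the count was 498 with array weights and 814 with the trended and robust prior, in place of 240. With 1 array left out it was 11 to 155. Same-numbered arrays of the groups correlated at 0.084, 0.191 and 0.025 in their deviations over all features. Arrays with different numbers correlated at -0.137 to 0.064. Whether same-numbered arrays share a batch was not tested. With the replicate block 230 features and 0 genes of the set were called, and the smallest adjusted p in the set was 0.0904, for Pgls. Of 344 differences recomputed, 317 kept their sign and side of the threshold, 1 passed it and 26 turned their sign, in 9 genes. The level filter, the replicate block and the trended and robust prior leave a difference unchanged, so there its sign was kept by construction. Median centring gave 0.017 for Aldoa, 0.052 for Pgam1 and 0.042 for Slc16a1, and cyclic loess gave -0.039 for Pfkl and -0.058 for Pdha1. With 1 array left out the differences were -0.23 to 0.044 for Slc2a3, -0.035 to 0.12 for Pfkl, -0.045 to 0.34 for Pfkm, -0.31 to 0.16 for Aldoa, -0.21 to 0.14 for Pgk1, -0.15 to 0.078 for Pgam1, -0.085 to 0.088 for Slc16a1, -0.14 to 0.18 for Pdha1 and -0.021 to 0.32 for Rpia. The cause of these turns was not tested. Leaving out 1 array turned or moved the difference by over 1.5 times in 21 of the 29 genes, among them 2 of the 9 without overlap, Pdk1 and Pgd. Median centring moved the median of all features to 0.026, in place of -0.040. With 3 arrays a group the median SE of the set was 0.146.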
